A study of Homo sapiens with 6 samples.

Results

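The nuclear pore genes described here are 33 of the 60607 genes in the quantification. They were chosen by name among genes with a protein-coding transcript: every gene symbol made of NUP and a number, with or without the ending L or CL, together with RAE1, TPR, SEH1L, RANBP2, AAAS, NDC1, POM121, POM121C, AHCTF1 and GLE1. No expression value entered the rule, but it was chosen with earlier results of these data known. All 33 passed the filter on low counts and were tested.

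The nuclear pore is a ring-shaped channel through the nuclear envelope, built from many copies of proteins called nucleoporins. A scaffold made of Y-shaped complexes and an inner ring holds a central channel filled with disordered protein chains. Filaments reach into the cytoplasm on one side, and a basket reaches into the nucleus on the other. Transport receptors carry proteins and RNA through the channel, and messenger RNA normally leaves the nucleus after splicing and packaging, with RAE1 among the factors that bind it at the pore.

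The cells were PLC/PRF/5, an established human hepatocellular carcinoma line. They were transfected with siRNA against SLU7, a factor of the step of splicing that joins the exons, or with siGL2, the control siRNA. RNA was taken 48 h later, and 3 libraries of polyA RNA were sequenced per treatment. The labels say only that the transfections were done in triplicate, so p-values measure the spread between these libraries, which may be technical.

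The libraries held 7736584 to 8693977 estimated counts in the controls, against 5191452 to 6315740 in the knockdowns. Mitochondrial ribosomal RNA took 16.8% to 24.1% of the counts in the controls, against 29.9% to 35.3% in the knockdowns, 7SL RNA took 15.85% to 23.5% against 8.09% to 10.6%, and the 33 pore genes took 0.172% to 0.202% and 0.200% to 0.217%. SLU7 stood at 20.8, 17.1 and 18.3 CPM (counts scaled to library size) in the controls, against 9.24, 8.11 and 10.5 CPM in the knockdowns. Its log2 fold change, knockdown minus control, was -1.02 (SE 0.18, Benjamini-Hochberg adjusted p = 0.0139, edgeR quasi-likelihood test). The SLU7 call was lost without knockdown replicate 1 (adjusted p = 0.0555) or 2 (adjusted p = 0.0806). On log2(TPM + 1), where TPM is the level corrected for transcript length, the change was -0.06, while the median of all genes was 0.35. Unlike the edgeR fits, that scale had no factors between libraries (TMM) applied. Control replicate 1 and knockdown replicate 3 differed most from their own groups, and their deviations ran together (r = 0.44 across genes). The 10 hepatocyte markers were all detected, with sums of 19978 to 30908 CPM in the controls, against 18492 to 24951 CPM in the knockdowns, mostly from APOB and SERPINA1. TTR passed the test as higher (log2 fold change 1.52), 7 of the 10 had negative values, and APOB, TF and HNF4A were lower without overlap but not past the test. The 4 immune markers summed to 17.9 to 27.7 CPM and 19.2 to 22.5 CPM, nearly all from CD68, and CD3E and CD14 had at most 2 counts in any library. PTPRC, the leukocyte antigen CD45, had 3, 3 and 4 counts in the controls, against 12, 11 and 8 in the knockdowns and passed the test, and the part of such cells in the results below was not tested. Fibroblast markers summed to at most 3.39 CPM and endothelial markers to at most 4.86 CPM. In bulk RNA, fewer cells expressing a gene and less RNA of that gene per cell cannot be told apart.

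Across the pore, 6 of 33 genes were higher in the knockdown and 1 was lower at an adjusted p under 0.05 in the edgeR quasi-likelihood test. Over all 17097 genes tested, 5.93% were higher and 7.87% lower, or 13.8% in either direction. The 6 higher genes were RAE1, POM121C, NUP35, POM121, AHCTF1 and NUP50, and the lower gene was NUP210. The median log2 fold change was 0.10 over the pore genes and -0.01 over all genes. POM121, POM121C, AHCTF1 and RANBP2 share much of their sequence with other genes. Without these, 3 of 29 pore genes were higher and 1 lower, with a median of 0.09. The 3 control and 3 knockdown values did not overlap in 12 pore genes, 9 of them higher and 3 lower in the knockdown, while 36.6% of all genes had groups that did not overlap, 17.8% higher and 18.8% lower. Without control replicate 1 and knockdown replicate 3, 8 pore genes were higher and 1 lower, against 14.1% and 15.7% of all genes. With 1 library left out, the number higher was 8 without control replicate 1 (12% of all genes) and 3 without knockdown replicate 3 (2.31%). It was 2 without control replicate 3 (1.3%) or knockdown replicate 1 (0.845%). The number was 1 without control replicate 2 (1.0%) and 0 without knockdown replicate 2 (0.0%). In that last fit, in which no gene of the whole table passed edgeR, 9 of 33 pore genes had an unadjusted p under 0.05, against 23.0% of all genes. All 7 calls remained when structural RNA and mitochondrially encoded genes were left out of the counts. Of the 6 parts of the pore, the membrane part had 2 genes higher and 1 lower among 5. The 2 higher ones, POM121 and POM121C, share much of their sequence. No other part had more than 1 gene past the test, and the central channel had none. With 3 to 9 genes per part, differences between the parts were not tested.

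**Figure D1:**
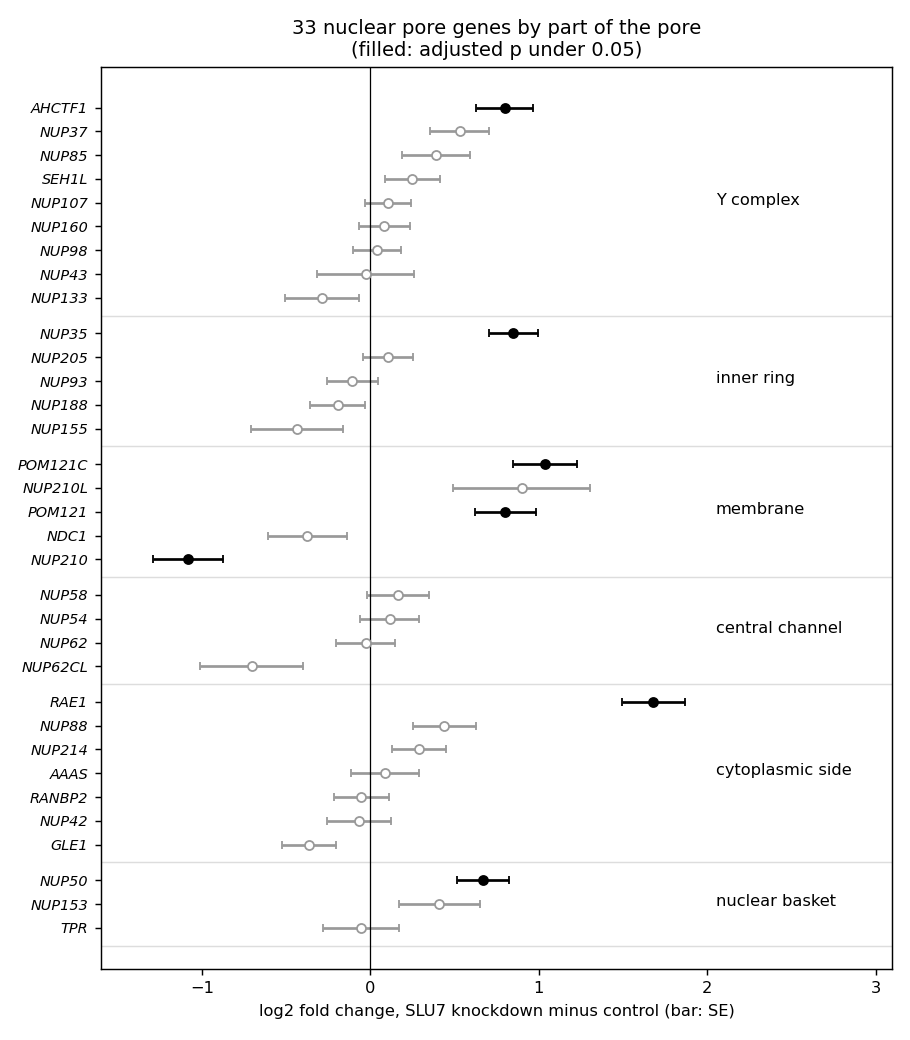
Log2 fold change of the 33 nuclear pore genes (horizontal axis, knockdown minus control, bars are the SE), ordered within 6 parts of the pore. Filled points passed the edgeR test. Of the filled points RAE1 lies at 1.68, 5 others lie between 0.67 and 1.04, and NUP210 lies at -1.08.

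RAE1, the mRNA export factor that docks on the nucleoporin NUP98, had the largest change of the 33 genes. The gene (ENSG00000101146.13) lies on chromosome 20, 57351010 to 57379211 on the plus strand (GRCh38). It was measured at 7.41, 9.91 and 9.46 CPM in the controls and at 27.2, 32.3 and 26.4 CPM in the knockdowns. Every knockdown value was above every control value, and the 2 groups lay far apart. The log2 fold change was 1.68 (SE 0.19, adjusted p = 0.0077, edgeR quasi-likelihood test), a 3.20-fold rise. The counts behind it were 59, 74 and 74 in the controls, against 177, 175 and 141 in the knockdowns. Only 0.60% of the 31-base words of its transcripts occur in another gene, so few of its reads could be shared. Corrected for length but without TMM factors, RAE1 moved from 3.76 ± 1.32 to 18.2 ± 2.02 TPM (SD, n = 3). Its control mean was among the 4 lowest of the pore genes, though within its spread of the next genes above. The call held in 15 of 17 alternative analyses. Among fits without 1 library it was lost without knockdown replicate 2, with a log2 fold change of 1.59 (adjusted p = 0.0663, edgeR).

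**Figure D2:**
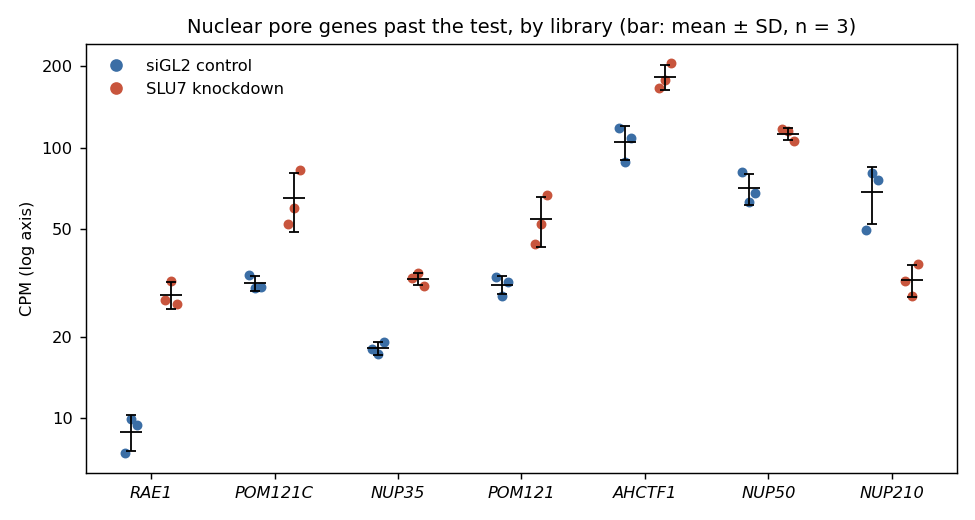
CPM (log axis) of the 7 nuclear pore genes past the test in each of the 6 libraries. Points are libraries and bars are the mean ± SD (n = 3). RAE1 lies between 7.41 and 9.91 CPM in the controls and between 26.4 and 32.3 CPM in the knockdowns, and NUP210 shows the opposite order.

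RAE1 was quantified as 9 transcripts, of which 7 are protein coding, 1 is a retained-intron transcript and 1 is a target of nonsense-mediated decay. The retained-intron transcript RAE1-207 spans 3251 bases, 2422 of which lie outside the exons of the coding transcripts. Its first exon begins inside an intron of the coding transcripts and runs through the next intron, of 81 bases, which it keeps whole. That intron is shown as a stretch that RAE1-207 keeps and 4 of the coding transcripts remove. It makes up 81 of the 2422 bases, and the counts of the transcript do not measure it alone. It lies at chr20:57373582-57373662 on the plus strand of GRCh38, read from GENCODE 29, with the GT of its 5′ end and the AG of its 3′ end in capitals.
RAE1-207 retained intron: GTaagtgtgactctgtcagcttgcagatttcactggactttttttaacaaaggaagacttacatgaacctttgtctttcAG
Of the 20 bases before the final AG, 70% are C or T. SLU7 acts at the step of splicing that uses this AG.

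RAE1-207 had 30.3, 28.0 and 27.6 estimated counts in the controls, against 64.7, 76.2 and 71.3 in the knockdowns. All 3 knockdown libraries were above all controls, with a log2 fold change of 1.63 (SE 0.29) that did not pass the test over 43128 transcripts (adjusted p = 0.108, edgeR). The tested coding transcripts had values of similar size without passing the test, with log2 fold changes of 1.58 for RAE1-206, 1.33 for RAE1-209 and 1.69 for RAE1-204. RAE1-204 and RAE1-206 cover only exons in the 5′ part of the gene, and RAE1-204 overlapped between groups. RAE1-201, a full-length coding transcript, had 10.9, 0 and 0 estimated counts in the controls, against 16.2, 9.76 and 0 in the knockdowns. RAE1-202 and RAE1-205 were at 0 in every library, and RAE1-203 had 5.00 counts in control replicate 3 alone.

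**Figure D3:**
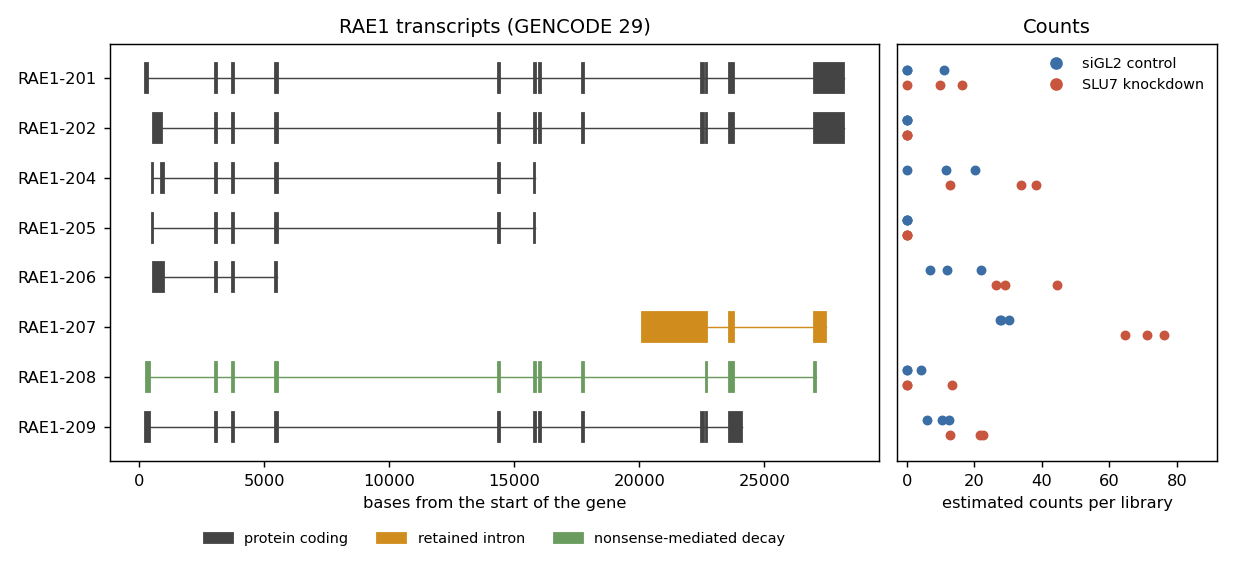
Left, exons of 8 of the 9 RAE1 transcripts as boxes at their distance in bases from the start of the gene (GENCODE 29), coloured by transcript type; RAE1-203, whose version differs, is not drawn. Right, estimated counts in each library, with RAE1-207 between 27.6 and 30.3 in the controls and between 64.7 and 76.2 in the knockdowns.

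The shares of coding and intron-containing RAE1 transcripts overlapped between the groups, unlike the level of the gene. Coding transcripts took 49.2%, 62.2% and 56.8% of the RAE1 counts in the controls, against 55.9%, 56.6% and 49.6% in the knockdowns. The retained-intron transcript took 50.8%, 37.8% and 37.8% in the controls, against 36.7%, 43.4% and 50.4% in the knockdowns. These are shares of counts, to which longer transcripts add more. Weighed by TPM, the mean retained-intron share was 15.4% in the controls and 13.6% in the knockdowns. The mean coding share was then 82.9% and 84.0%. In an exact permutation test, two-sided, p was 0.7 for the coding share and 1.0 for the retained-intron share. With 59 to 177 RAE1 counts per library, the mean retained-intron shares were 42.2% ± 7.51 and 43.5% ± 6.82 (SD, n = 3), so a difference within that spread was not detectable.

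The Y complex, the scaffold that forms the outer rings, had 1 of 9 genes past the test. AHCTF1, which encodes ELYS, the protein that starts pore assembly on chromatin after mitosis, rose. It was at 119, 88.8 and 108 CPM in the controls, against 166, 178 and 205 CPM in the knockdowns, with no overlap. Its log2 fold change was 0.80 (SE 0.17, adjusted p = 0.0215, edgeR). The pseudogene AHCTF1P1 shares 51.9% of the 31-base words of AHCTF1 but was measured at only 0.37 to 1.39 CPM. Summed over both, the level went from 106 to 184 CPM (1.73-fold). The AHCTF1 call was lost without any single library other than control replicate 1 (adjusted p = 0.0619 to 0.0961). NUP37 (0.53, adjusted p = 0.0771) and NUP85 (0.39, adjusted p = 0.213) had knockdown values above all controls without passing the edgeR test. The scaffold members NUP107 (0.11), NUP160 (0.08), NUP43 (-0.03), NUP133 (-0.29) and SEH1L (0.25) did not pass, nor did NUP98 (0.04). NUP98 is counted in this part because the gene also encodes, by cleavage, the Y complex protein NUP96. NUP98, the partner of RAE1 at the pore, was at 111, 105 and 125 CPM in the controls, against 117, 119 and 115 CPM in the knockdowns, with the knockdowns inside the range of the controls. SEC13, the Y complex member that also coats secretory vesicles and that the choice by name leaves out, fell from 98.3, 109 and 91.1 CPM to 60.3, 67.8 and 68.2 CPM (log2 fold change -0.60, adjusted p = 0.029, edgeR).

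In the inner ring, which links the scaffold to the membrane and the channel, NUP35 rose and the other 4 genes did not pass the test. NUP35, a protein that touches the membrane and binds NUP155 and NUP93, was at 18.0, 17.3 and 19.2 CPM in the controls, against 32.9, 34.3 and 30.8 CPM in the knockdowns. The groups lay far apart for their spread, with SDs of 0.96 and 1.74 CPM, and the log2 fold change was 0.85 (SE 0.15, adjusted p = 0.0121, edgeR). The call was lost without control replicate 2, knockdown replicate 1 or knockdown replicate 2 (adjusted p = 0.0532 to 0.0779). The values were -0.44 for NUP155 (SE 0.27), -0.19 for NUP188 (SE 0.16), -0.11 for NUP93 (SE 0.15) and 0.10 for NUP205 (SE 0.15). NUP155 overlapped widely between groups, at 92.4 to 157 CPM in the controls and 60.2 to 115 CPM in the knockdowns.

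The membrane group held calls in both directions. NUP210, the glycoprotein gp210 with a large domain in the lumen of the nuclear envelope, fell. It was at 49.8, 80.5 and 75.8 CPM in the controls, against 32.2, 28.2 and 37.0 CPM in the knockdowns, so the highest knockdown was below the lowest control. The log2 fold change was -1.08 (SE 0.21, adjusted p = 0.0163, edgeR). On log2(TPM + 1), where the median of all genes was 0.35, the change of NUP210 was -0.25 (adjusted p = 0.503, limma). With offsets for transcript length in edgeR it was -0.91 (adjusted p = 0.0741). The call was also lost without control replicate 2 or 3 or knockdown replicate 1 or 2 (adjusted p = 0.0596 to 0.0913). Its main coding transcript NUP210-201, named after its values were seen, carried 382, 560 and 568 estimated counts in the controls, against 175, 143 and 189 in the knockdowns. NDC1, another membrane anchor, overlapped between groups (log2 fold change -0.37). NUP210L, the relative of NUP210 known from testis, was the lowest pore gene per length, at 0.64 ± 0.36 TPM in the controls, with a log2 fold change of 0.90 (SE 0.41, adjusted p = 0.165, edgeR).

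POM121 and POM121C encode near-identical membrane nucleoporins that anchor the central channel, and both rose. POM121C was at 33.9, 30.3 and 30.7 CPM in the controls, against 52.0, 59.9 and 82.8 CPM in the knockdowns, with a log2 fold change of 1.04 (SE 0.19, adjusted p = 0.0145, edgeR). POM121 was at 33.1, 28.4 and 31.9 CPM and 44.2, 52.2 and 66.7 CPM, with a log2 fold change of 0.80 (SE 0.18, adjusted p = 0.0247). In both genes no group values overlapped and knockdown replicate 3 was the highest library. The genes share much of their sequence, with 72.6% of the 31-base words of POM121 and 56.7% of those of POM121C found in some other gene. Between the pair, 39.5% of the 31-base words of POM121 occur in POM121C and 44.2% of those of POM121C occur in POM121, so the split of reads between them is uncertain. Their sum with POM121B, which does not depend on how reads were split among these 3 genes but can still share reads with others, was 67.1, 58.7 and 62.6 CPM in the controls, against 96.5, 112 and 150 CPM in the knockdowns (1.90-fold; exact permutation test, two-sided, p = 0.1, the smallest that 3 against 3 can give). The POM121C call was lost without control replicate 2 or 3 or knockdown replicate 2 (adjusted p = 0.0564 to 0.0742), and the POM121 call without any single library other than control replicate 1 (adjusted p = 0.0523 to 0.101).

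The central channel had no gene past the test. The channel proteins NUP62 (-0.03), NUP54 (0.12) and NUP58 (0.17), which carry the repeats that transport receptors touch, overlapped between groups. NUP62CL, a shorter relative of NUP62, was at 8.16, 5.89 and 7.54 CPM in the controls, against 5.23, 5.35 and 2.62 CPM in the knockdowns. Its groups did not overlap, but the log2 fold change of -0.70 (SE 0.31) did not pass the edgeR test (adjusted p = 0.152). The change was 0.00079 on log2(TPM + 1), where the median of all genes was 0.35.

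On the cytoplasmic side, RAE1 was the gene past the test among 7. GLE1, which activates the helicase that strips export factors from mRNA, was at 40.4, 30.0 and 33.0 CPM in the controls, against 26.2, 26.5 and 27.7 CPM in the knockdowns. Its knockdown values were all below the controls, with a log2 fold change of -0.36 (SE 0.16, adjusted p = 0.162, edgeR). The change was 0.21 on log2(TPM + 1), where the median of all genes was 0.35. NUP88, which holds NUP214 at the cytoplasmic face, had values above all controls (0.44, adjusted p = 0.145) and shares 22.2% of its 31-base words with other genes, most with RPAIN (9.25%) and RABEP1 (8.15%), while NUP214 (0.29), AAAS (0.09) and NUP42 (-0.07) overlapped. RANBP2, the large filament protein with SUMO ligase activity, was at 259, 219 and 268 CPM in the controls, against 261, 242 and 216 CPM in the knockdowns (log2 fold change -0.05, SE 0.16). It shares 33.4% of its 31-base words with other genes, chiefly the RGPD genes that arose from it. RGPD8 and RGPD6 share nearly the same part of these words, 25.9% and 25.6%. RGPD8 rose from 34.9, 34.8 and 35.8 CPM to 72.0, 77.6 and 83.4 CPM (2.21-fold) and passed the test. RGPD6 (log2 fold change 0.88, adjusted p = 0.0958, edgeR) and RGPD5 (0.89, adjusted p = 0.107) did not pass. The split of reads between RANBP2 and these genes is uncertain. RANBP2 and the 7 RGPD genes together went from 340 ± 31.6 to 421 ± 33.4 CPM (1.24-fold; exact permutation p = 0.1), so the sum was higher in every knockdown while RANBP2 alone overlapped.

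In the nuclear basket, NUP50 rose and NUP153 and TPR did not pass the test. NUP50, which helps to release import cargo inside the nucleus, was at 81.4, 63.1 and 68.0 CPM in the controls, against 117, 115 and 106 CPM in the knockdowns. No values overlapped, and the log2 fold change was 0.67 (SE 0.15, adjusted p = 0.0254, edgeR). The call was lost without any single library other than control replicate 1 (adjusted p = 0.0545 to 0.119), and 10.1% of its 31-base words occur in AL133268.1. NUP153 (0.41, SE 0.24, adjusted p = 0.281) ranged from 32.5 to 57.0 CPM in the controls and ranged from 43.6 to 70.3 CPM in the knockdowns. TPR, which forms the filaments of the basket, was at 383, 224 and 247 CPM in the controls, against 263, 256 and 304 CPM in the knockdowns (log2 fold change -0.06, SE 0.22), with control replicate 1 the highest library.

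Per length, the controls expressed NUP205 (34.3 ± 16.3 TPM), TPR (27.8 ± 9.33 TPM), NUP50 (23.6 ± 11.0 TPM), SEH1L (23.1 ± 5.42 TPM) and NUP98 (20.7 ± 5.09 TPM) most. The SDs of these neighbours were larger than the gaps between them, so their order is not resolved. The values sum transcripts of all types, and retained-intron transcripts made up 42.7% of the NUP205 TPM in the controls. The lowest were NUP210L, POM121 (2.58 ± 0.57 TPM), NUP153 (3.33 ± 1.27 TPM) and RAE1, and the last 3 also lay within their spread of each other. The POM121 value depends on the uncertain split of reads with POM121C (8.61 ± 2.69 TPM). RAE1, at 3.76 ± 1.32 TPM, was also within its spread of NUP62CL (4.14 ± 1.02 TPM) and AAAS (4.23 ± 0.21 TPM), so its rank is not resolved. In the knockdowns RAE1, at 18.2 ± 2.02 TPM, was near NUP88 (18.8 ± 3.04 TPM) and NUP35 (17.8 ± 1.07 TPM).

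The gene level results depend on the scale. On log2(TPM + 1) in limma, 12 pore genes were higher and none was lower, against 17.4% and 0.877% of all genes. They were the 6 genes called higher on counts and NUP37, NUP85, NUP88, NUP160, NUP188 and NUP214. Over all genes 95.2% of the calls were then higher, against 43.0% in edgeR on counts, and the median of all genes lay at 0.35. This scale had no TMM factors, so it differs from the counts in more than length. With offsets for transcript length in edgeR, 3 pore genes were higher, RAE1, NUP35 and POM121C, and none was lower, against 2.58% and 3.02% of all genes. TMM factors were kept in that fit, and the median of all genes was -0.018. DESeq2 called the same 7 genes as edgeR, where 6.11% of all genes were higher and 8.75% lower.

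Retained-intron transcripts of the pore genes took a larger share of the counts in every knockdown library than in any control, as did those of all coding genes. The files give each transcript a type, grouped here as coding, targets of nonsense-mediated decay, retained intron or other. The retained-intron class took 3.79%, 5.74% and 4.81% of the pore gene counts in the controls, against 8.04%, 7.40% and 6.40% in the knockdowns. The groups did not overlap, and the means were 4.78% ± 0.98 and 7.28% ± 0.82 (SD, n = 3), a difference of 2.50 percentage points. Without RAE1 they were 4.60% and 6.77%. Over all genes with a coding transcript the share went from 10.0% to 13.4%. Weighed by TPM, the pore gene shares were 7.84%, 17.8% and 15.4% in the controls, against 20.6%, 15.9% and 12.4% in the knockdowns, which overlap.

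Gene by gene, the use of the retained-intron class relative to the whole gene was above 0 in 13 of the 19 pore genes tested, and in 75.4% of 4401 genes overall. The median log2 relative use was 0.59 over the pore genes and 0.35 over all genes. None of the 67 tested classes of 26 pore genes passed the edgeR test of class use, against 0.724% of all classes, and 9 had an unadjusted p under 0.05, against 8.68% of all. Limma's test of class use called 3, in NUP188 and NUP58, against 3.52% of all classes.

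**Figure D4:**
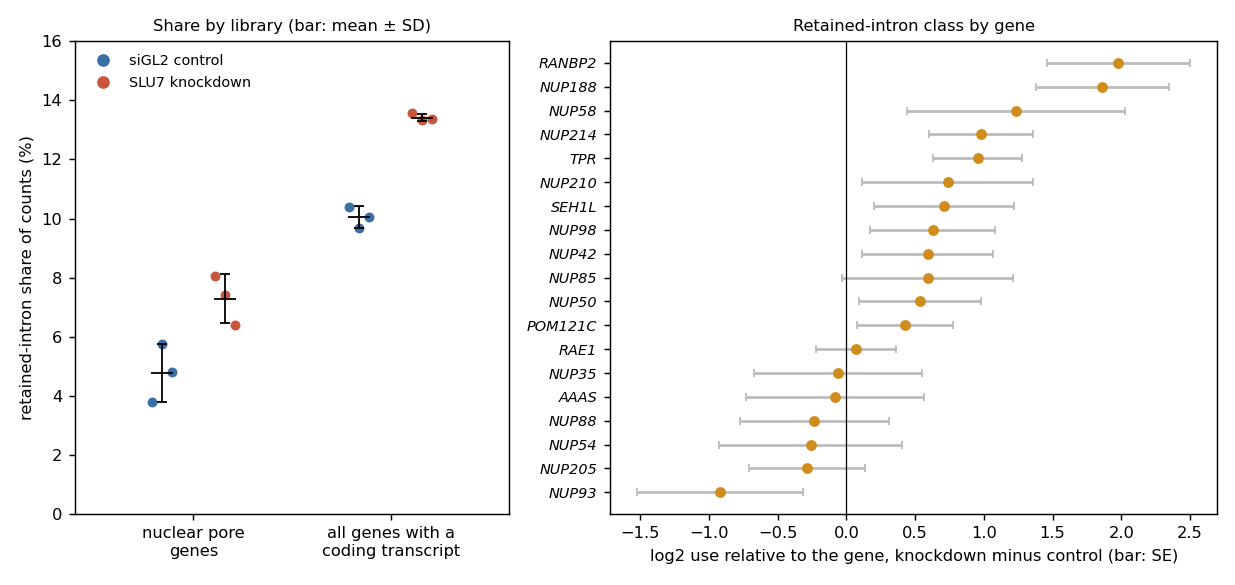
Left, share of counts in retained-intron transcripts (%) for the nuclear pore genes and for all genes with a coding transcript in each library, with mean ± SD (n = 3). Right, log2 use of the retained-intron class relative to its gene for 19 pore genes (bars are the SE); 13 lie above 0 and none passed the edgeR test.

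NUP188, a large protein of the inner ring, had the class with the smallest p. Its retained-intron transcripts had 11, 13 and 19 counts in the controls, against 43, 33 and 27 in the knockdowns, while the gene as a whole did not pass the test (log2 fold change -0.19). Their share of the gene was 3.34%, 3.45% and 4.84% in the controls, against 14.8%, 13.7% and 14.4% in the knockdowns (exact permutation test, two-sided, p = 0.1). The log2 relative use was 1.86 (adjusted p = 0.151, edgeR; adjusted p = 0.0469, limma). The coding share of NUP188 was 88.5%, 94.7% and 93.4% in the controls, against 78.3%, 73.0% and 68.6% in the knockdowns, also without overlap. Its log2 relative use was -0.33 in edgeR, against the whole gene (adjusted p = 0.9998). In limma, where a class is set against the average of the gene's other classes, it was -2.19 (adjusted p = 0.0107). The sizes of these 2 values are therefore not comparable. The class of other NUP188 transcripts had a log2 relative use of 1.70 (adjusted p = 0.271, edgeR), and of 2.70 without control replicate 1 (adjusted p = 0.0207). On the scales corrected for length, NUP188 as a gene had a value of 1.33 on log2(TPM + 1) (adjusted p = 0.0158, limma) and of 0.87 with length offsets (adjusted p = 0.0502, edgeR). Weighed by TPM, the mean coding share of NUP188 was 48.2% in the controls and 16.9% in the knockdowns. The retained-intron share was then 21.0% and 30.2%, and the share of other transcripts 30.8% and 52.9%.

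NUP58, a channel protein, had its coding share higher and its other share lower in the knockdown. Its other transcripts, which have no coding label, took 41.6%, 51.9% and 36.2% of its counts in the controls, against 27.0%, 15.8% and 4.98% in the knockdowns. The coding share was 53.5%, 45.2% and 56.9% in the controls, against 66.0%, 74.1% and 87.6% in the knockdowns. Neither overlapped between groups (exact permutation p = 0.1 each). Weighed by TPM, the mean share of other transcripts was 60.8% in the controls and 25.9% in the knockdowns. The mean coding share was then 25.2% and 46.1%. The log2 relative use of the other class was -1.31 (adjusted p = 0.265, edgeR; adjusted p = 0.0283, limma).

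**Figure D5:**
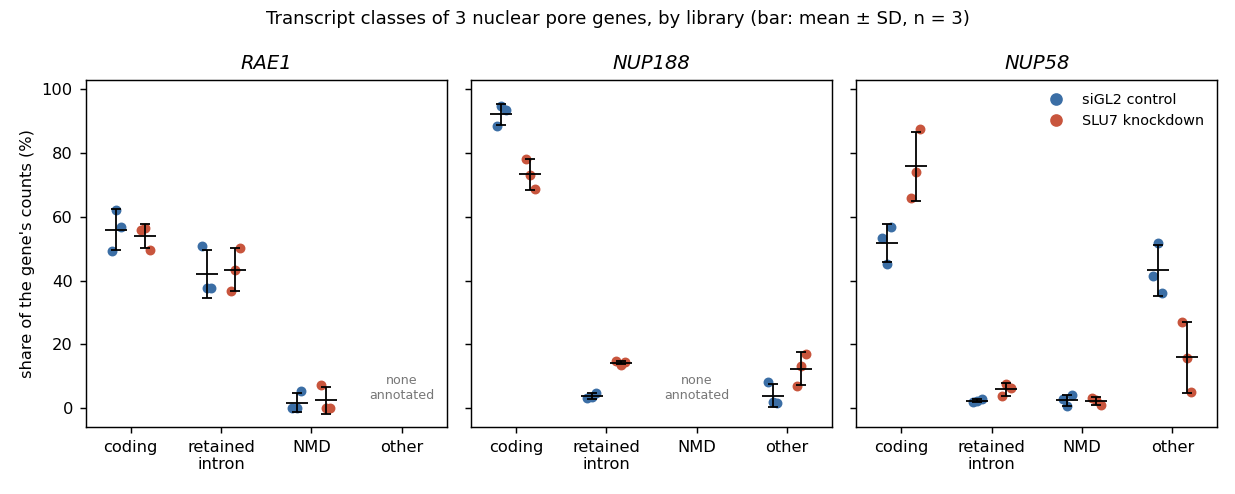
Share of the counts of RAE1, NUP188 and NUP58 (%) in each transcript class, by library, with mean ± SD (n = 3); NMD is nonsense-mediated decay. The RAE1 shares overlap between groups, the NUP188 retained-intron share is between 3.34% and 4.84% in the controls and between 13.7% and 14.8% in the knockdowns, and the NUP58 coding share is higher in all 3 knockdowns.

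At the level of single transcripts, 134 transcripts of the 33 pore genes were tested and none passed, as none of all 43128 did in edgeR. At an unadjusted p under 0.05 there were 30, 23 of them higher in the knockdown, against 16.1% of all transcripts. Groups did not overlap in 43, against 28.1% of all. Of the 21 retained-intron transcripts tested, 16 had a positive log2 fold change, with a median of 0.80, while all 7692 retained-intron transcripts tested had a median of 0.35 and were positive in 64.3%. Coding transcripts had a median of 0.09 in the pore genes and -0.20 overall.

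Apart from RAE1-207, 3 tested retained-intron transcripts of pore genes hold a whole intron that 1 to 3 coding transcripts of the gene remove. They were singled out for that after the values were seen. Their last 50 intron bases are shown because SLU7 acts at the 3′ end of introns, with the final AG in capitals (GRCh38, GENCODE 29). The TPR-206 intron end is at chr1:186341390-186341439 on the minus strand, that of NUP50-214 at chr22:45184403-45184452 and that of NUP35-209 at chr2:183161004-183161053, both on the plus strand.
TPR-206: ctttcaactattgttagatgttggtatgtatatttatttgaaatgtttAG
NUP50-214: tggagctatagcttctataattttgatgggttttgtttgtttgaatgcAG
NUP35-209: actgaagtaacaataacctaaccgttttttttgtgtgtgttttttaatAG
The whole introns are 1936, 932 and 1401 bases long in that order, and 60%, 60% and 70% of the 20 bases before the AG are C or T. The transcripts that hold them are 2727, 3507 and 2828 bases long, so their counts do not measure these introns alone. TPR-206 had 63.9, 34.3 and 30.5 estimated counts in the controls, against 73.6, 85.3 and 77.7 in the knockdowns, without overlap. Its log2 fold change was 1.22 (adjusted p = 0.203, edgeR), while TPR as a gene was at -0.06. NUP50-214 (1.11, adjusted p = 0.478) and NUP35-209 (0.81, adjusted p = 0.582) overlapped between groups.

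The proteins that work with the pore were described by 51 further genes, of which 49 were tested, KPNA7 and NXT1 being too low. Their lists were also chosen with earlier results of these data known. In the edgeR test 8 were higher and 3 lower, against 5.93% and 7.87% of all genes, with a median log2 fold change of 0.15. With 1 library left out, 13 were higher without control replicate 1 (12% of all genes), 2 without control replicate 3 (1.3%) or knockdown replicate 3 (2.31%), and 0 without control replicate 2 (1.0%), knockdown replicate 1 (0.845%) or knockdown replicate 2 (0.0%). In those last 3 fits 14, 18 and 15 of the partner genes had an unadjusted p under 0.05, against 23.4%, 25.6% and 23.0% of all genes. In the other direction, 3 were lower without control replicate 1 (13.6% of all genes) and 0 without any other single library (0.0% to 3.24%). For export of mRNA, NXF1, the main receptor, rose from 17.1, 21.0 and 25.2 CPM to 37.4, 38.3 and 37.8 CPM (log2 fold change 0.84, adjusted p = 0.0195). PCID2, a subunit of the export complex at the basket, rose from 14.3, 20.4 and 18.7 CPM to 35.6, 30.1 and 25.4 CPM (0.77, adjusted p = 0.0351). These were 2 of 10 tested genes of mRNA passage, and 5 of the 10 were negative.

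Among 17 tested importins, the receptors and adaptors of import, KPNA1 (log2 fold change 0.85), TNPO2 (0.64) and KPNA4 (0.56) were higher and none was lower in edgeR. XPO4 (0.59) was the exportin past the test among 7. In the Ran cycle, which gives transport its direction, RANGAP1, the activator of GTP hydrolysis at the cytoplasmic filaments, fell from 55.0, 63.1 and 61.2 CPM to 38.3, 36.0 and 42.2 CPM (-0.62, adjusted p = 0.0254). RCC1, the exchange factor on chromatin, was above all controls without passing (0.44, adjusted p = 0.0632). The checkpoint pair bound at the basket split: MAD2L1 rose from 6.28, 7.10 and 11.0 CPM to 16.8, 22.3 and 17.6 CPM (1.21, adjusted p = 0.0187), and MAD1L1 fell from 96.3, 92.3 and 70.9 CPM to 47.6, 54.9 and 64.7 CPM (-0.64, adjusted p = 0.0481). SEC13, RANGAP1 and MAD1L1 were above 0 on log2(TPM + 1), by 0.02, 0.44 and 0.09, where the median of all genes was 0.35.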

How the data were processed

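PolyA RNA was made into libraries with a ScriptSeq kit, per the labels' protocols. FastQC 0.11.8, Trimmomatic 0.38, kallisto 0.46.1, sleuth 0.30.0 and the build GRCh38 are named per the submitters' processing notes, without roles. The authors deposited estimated counts per transcript, in which reads are split between transcripts, together with TPM values, per the file headers. The strand setting is not given in the sources used here, so overlapping genes cannot be told apart. Each file held 234485 transcripts.

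Estimated counts were rounded per transcript and summed to 60607 genes. Genes, transcripts and classes of transcripts (diffSpliceDGE) were compared over all 6 libraries in edgeR 4.0.16 (R 4.3.3). TMM normalization, filterByExpr (10 counts per library, 15 in all) and Benjamini-Hochberg adjustment at 0.05 were used. Single shares and sums were tested by exact permutation. Sequences and coordinates came from GENCODE 29, and 31-base words shared between genes were counted there. All pore genes could be named, with partner genes past the test or with the smallest p, tested RAE1 transcripts, and the 3 classes with the smallest p. A partner gene within this rule is not reported here. The script was tested on simulated data.

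Members and lists were chosen with earlier results of these data known. Alternatives were other size factors, filters, DESeq2 1.42.0, limma 3.58.1 on log2(TPM + 1) and diffSplice, length offsets, a replicate block, removal of structural RNA, and leaving out libraries. GC content offsets (mgcv 1.9.3) and summing before rounding were chosen after seeing the data.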

Additional observations from a re-analysis of the deposited data

How the results depend on the processing

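All 7 calls among the pore genes remained with DESeq2, RLE size factors, a stricter filter, no filter, no structural RNA, GC content and length offsets, and summing before rounding. Limits come from the libraries: with 1 left out at a time, 0 to 8 pore genes were higher and 0 to 1 lower, 0 to 13 partner genes were higher and 0 to 3 lower, and 0 to 1 classes passed. All genes past the test then numbered 0 (without knockdown replicate 2) to 4467 (without control replicate 1), against 2358. Without both control replicate 1 and knockdown replicate 3, 15 partner genes were higher, 6 lower and 2 classes passed, the other classes of NUP188 and NDC1. On log2(TPM + 1), 12 pore genes and 19 partner genes were higher and 0 and 0 lower. With length offsets these were 3, 4, 0 and 0, and with GC content and length offsets 1 partner gene was lower. Limma diffSplice called 3 classes.

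Replicate numbers did not pair the libraries (r = -0.41, 0.11 and -0.37 between same-numbered libraries). With the replicate number as a block, 0 of 17097 genes passed in edgeR (4195 at an unadjusted p under 0.05, 8 of them pore genes), so 0 pore genes and 0 partner genes were higher or lower, RAE1 had an adjusted p of 0.0566, and NUP43 had a log2 fold change of 0.039.

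Some genes changed sign, among them SEC13, RANGAP1 and MAD1L1, which were called lower on counts. With GC content and length offsets the log2 fold changes were -0.067 for NUP160, -0.077 for NUP54, -0.098 for NUP107, -0.045 for NUP98, -0.063 for NUP205 and 0.27 for NUP62. With length offsets they were 0.25 for TPR, -0.10 for NUP58, 0.14 for RANBP2, -0.072 for NUP54, 0.87 for NUP188 and -0.29 for NUP205. On log2(TPM + 1) they were 0.21 for NUP62, 0.44 for NUP43, 0.65 for RANBP2, 0.78 for TPR, 0.023 for SEC13, 0.00079 for NUP62CL, 0.44 for RANGAP1, 0.091 for MAD1L1, 0.21 for GLE1, 0.20 for NUP42, 1.33 for NUP188, 0.22 for NUP133 and 0.38 for NUP155. Without both libraries they were -0.054 for AAAS, 0.096 for NUP42, 0.14 for TPR, -0.0060 for NUP160 and 0.050 for RANBP2. With 1 library left out, they ranged from -0.075 to 0.23 for AAAS, -0.0073 to 0.17 for NUP160, -0.17 to 0.094 for NUP42, -0.32 to 0.14 for NUP43, -0.0033 to 0.24 for NUP54, -0.14 to 0.051 for NUP62, -0.023 to 0.094 for NUP98, -0.15 to 0.017 for RANBP2 and -0.21 to 0.22 for TPR. On log2(TPM + 1) the median of all genes was 0.35, so values between 0 and 0.35 there were positive but below that median. The cause of these changes of sign was not tested.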
